A study of Mus musculus with 40 samples.

Results

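The nuclear genes of oxidative phosphorylation encode most subunits of the respiratory chain complexes I to IV and of the ATP synthase (complex V). They were chosen by name, as the rows beginning with Ndufa, Ndufb, Ndufc, Ndufs, Ndufv, Uqcr, Cox4 to Cox8 or Atp5, together with Sdha, Sdhb, Sdhc, Sdhd and Cyc1. Of 54513 rows in each expression table, 108 had such a name. Of these, 9 rows were dropped because their names hold a pseudogene mark. Among them Ndufb1-ps was expressed and is described at the end. A further 9 rows stayed under a mean of 1 RPKM (read number scaled to exonic length and to library size) in every table. The remaining 90 genes comprised 36 subunits of complex I, 4 of complex II, 9 of complex III, 16 of complex IV, 17 of complex V and 8 Ndufaf genes, which encode assembly factors of complex I.

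Complexes I and II take electrons from NADH and succinate, complex III passes them on to cytochrome c, and complex IV (cytochrome c oxidase) hands them to oxygen. The protons pumped on the way drive the rotary ATP synthase. A few subunits of the chain are encoded by the mitochondrial genome instead, and complex IV has tissue-specific isoforms of several nuclear subunits. In myeloid cells the balance between this pathway and glycolysis is known to differ between activation states.

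The study sorted CD11b+ cells, which in brain are mainly microglia, monocytes and macrophages, from the hemispheres of mice bearing gliomas and measured poly-A RNA by strand-specific RNA sequencing. It asked how 7aaRGD, an integrin-blocking peptide, acted on these cells alone or with an antibody against PD-1, an inhibitory receptor of T cells. Male mice aged 10 to 12 weeks were used, and the peptides were delivered into the tumour by osmotic pump at 2 mg/ml. At 21 days post-implantation (DPI), C57BL/6 mice bearing the mouse glioma line GL261 had received vehicle (solvent), 7aaRGD or 7aaRAE, a control peptide with an altered integrin-binding motif, and naive C57BL/6 mice bore no tumour. Each of these 4 groups had 3 samples, each pooled from 2 animals. At 21 DPI, athymic nude mice bearing the human glioblastoma line U87-MG had received vehicle, 7aaRGD or 7aaRAE, again with 3 samples of 2 pooled animals per group. At 28 DPI, samples of 1 animal each came from mice given vehicle (n = 4), 7aaRGD (n = 4), anti-PD-1 at 10 mg/kg (n = 3) or both (the combination, n = 3). By the study's methods, groups without anti-PD-1 in this experiment were injected with control IgG. The labels of the 28 DPI samples name nude mice and no tumour line, whereas the study's methods describe GL261 gliomas in C57BL/6 mice for this experiment, and the host strain could not be settled from the files. Naive nude mice and the last sample each of anti-PD-1 and the combination were not analysed here.

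Whether the 3 tables were normalized together is not given in the sources used here, so levels were tested only within a table. The samples had 9327 to 9820 genes at 1 RPKM or more, with 16.4% to 24.0% of the signal in their 10 highest genes. Itgam, which encodes the sorted antigen CD11b, lay between 51.2 and 195 RPKM in every sample. It differed between groups compared below. In the 21 DPI table of GL261 tumours it averaged 115 RPKM in naive brain and 59.47 RPKM with vehicle. At 28 DPI it averaged 61.22 RPKM with vehicle and 79.78 RPKM with the combination. Neither pair of groups overlapped. In the 21 DPI table of GL261 tumours and the 28 DPI table, 1 direction of within-group variation was nearly absent (9.56e-03% and 0.0164% of the variance), so the replicates of a table were not fully independent and the p-values may be too small. Many of the 90 genes have near-identical processed pseudogenes elsewhere in the genome, and since reads of low mapping quality were left out by the authors, the levels of such genes are uncertain. In a bulk sample, fewer cells of a type and less RNA per cell cannot be told apart.

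The 90 genes summed to 4321 ± 146 RPKM (SD, n = 3) in CD11b+ cells of vehicle-treated GL261 tumours at 21 DPI, against 2264 ± 51.4 RPKM in naive brain. The vehicle samples ran from 4174 to 4465 RPKM and the naive samples from 2205 to 2299 RPKM. With 7aaRGD the sum lay between 4021 and 4636 RPKM and with 7aaRAE between 3992 and 4484 RPKM, so both peptide groups overlapped the vehicle group.

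At 28 DPI the sum was 4383 ± 92.3 RPKM with vehicle (4271 to 4491, n = 4), 4018 ± 170 with 7aaRGD (3910 to 4270, n = 4), 3944 ± 89.0 with anti-PD-1 (3854 to 4032, n = 3) and 3688 ± 85.1 with the combination (3612 to 3780, n = 3). The vehicle samples lay above all others, though the highest 7aaRGD sample came within 1 RPKM of the lowest of them. In U87-MG tumours the sum averaged 3296 ± 168 RPKM under vehicle, 3016 ± 105 under 7aaRGD and 3074 ± 247 under 7aaRAE, and the vehicle samples ran from 3104 to 3420 RPKM. The highest 7aaRGD sample (3128 RPKM) and 2 of the 3 7aaRAE samples (3162 and 3264 RPKM) lay within that range.

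**Figure D1:**
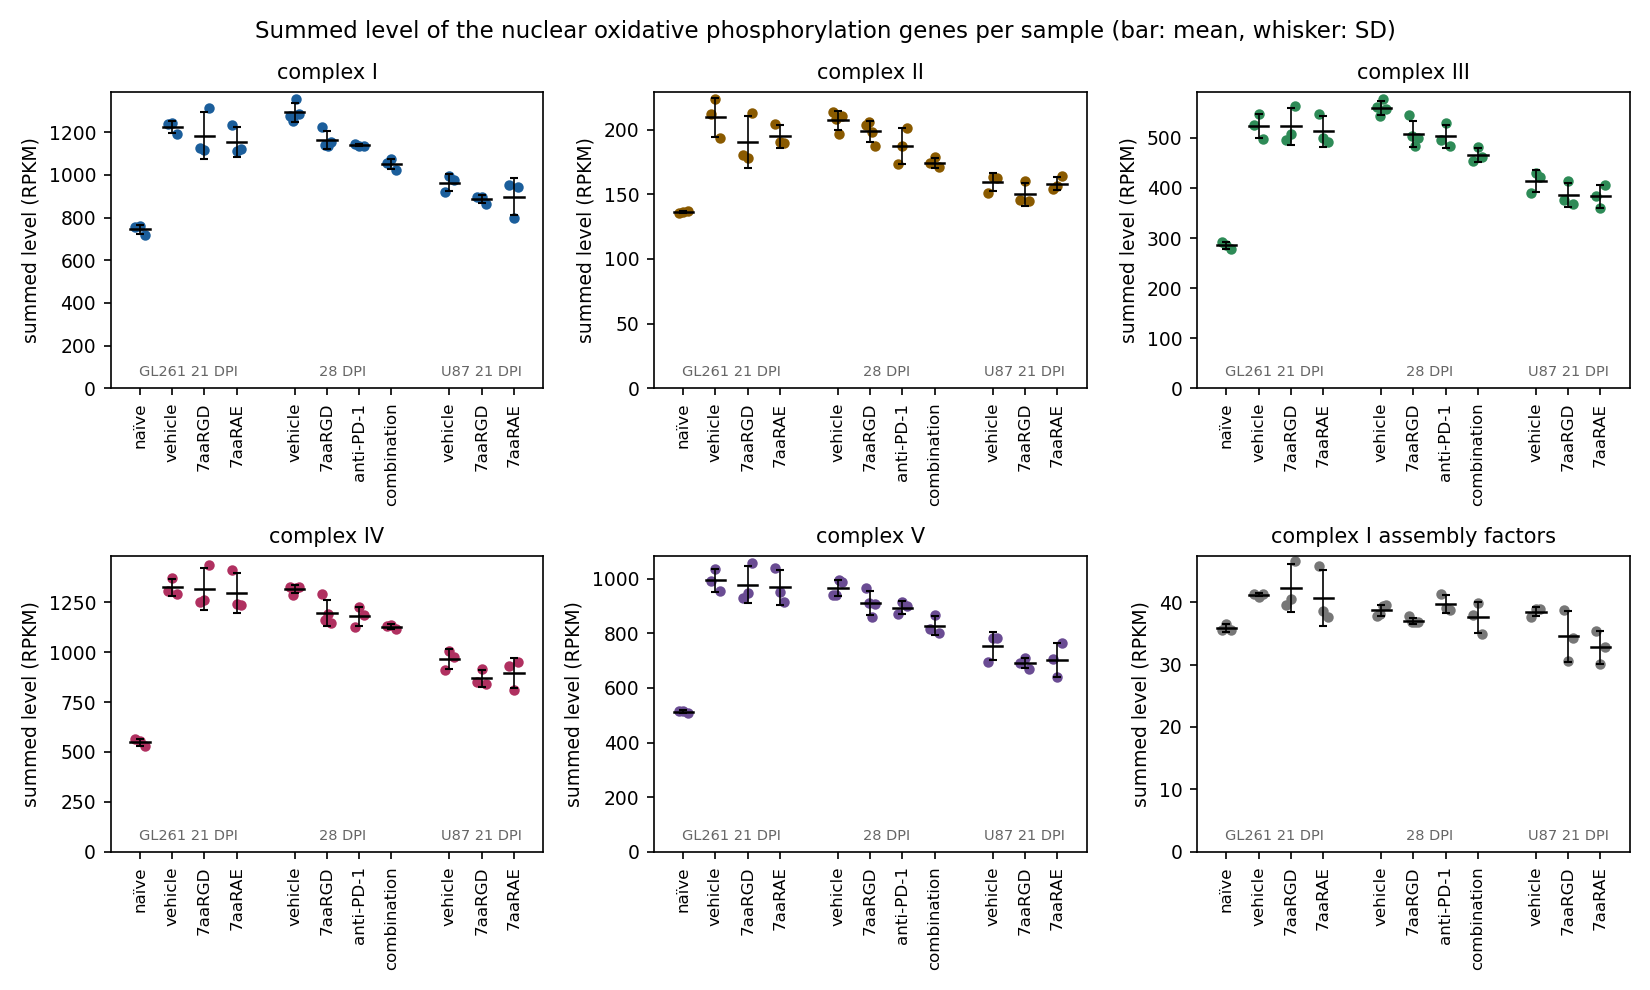
Summed RPKM of the nuclear oxidative phosphorylation genes in each sample, 1 panel per complex and 1 for the complex I assembly factors, with the groups of the 3 tables along the horizontal axis and RPKM on a vertical axis that starts at 0. Points are samples, bars are group means and whiskers are SD; in complex IV the naive samples averaged 548.7 RPKM and the vehicle samples at 21 DPI 1325 RPKM.

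RPKM is per length, here counted over all annotated exons of a gene. Where that length exceeds the transcript expressed, the level reads too low. Ranks between genes within a sample group are therefore approximate. In vehicle samples at 28 DPI the level ran from 0.960 RPKM for Cox7a1, the heart and muscle isoform of a small complex IV subunit, to 284.2 RPKM for Cox8a, the common isoform of another small subunit. The highest of complex V were its catalytic-head subunits Atp5a1 (163.2 RPKM) and Atp5b (148.8 RPKM). In complex I the highest were Ndufa2 (90.2 RPKM) and Ndufa1 (85.5 RPKM), both accessory subunits. In complex II Sdhd, a membrane anchor, was highest (85.7 RPKM) and Sdhc, the other anchor, lowest (26.0 RPKM). The complex I assembly factors stayed low, up to 13.1 RPKM for Ndufaf8.

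The 90 genes are short. Their exonic length ran from 419 to 8086 bp with a median of 1696.5 bp, against 4430 bp over the 9737 genes tested at 28 DPI. Exonic length was counted over all annotated exons of a gene and can exceed that of the transcript expressed. Of the 90, 21 (23.3%) were under 1 kb, against 2.2% of all genes tested. A change that depends on exonic length therefore falls on this group more than on other genes. Each comparison below was also made with a fit that removes the trend of expression on this length.

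Promoter motifs that were not used to choose these genes were found in part of them. RefSeq promoter windows (250 bases before to 50 after the start, GRCm38.p6) were found by symbol for 72 of the 90 genes. The windows were searched on both strands for GCATGCGC (bound by NRF1), CCGGAAG (the ETS site bound by GABP), ATGGCGGC (YY1), TCAAGGTCA (oestrogen-related receptors) and TGACGTCA (the cyclic AMP response element). The NRF1 letters were in 12 windows (16.7%, against 3.0% of 27025 genes), the ETS letters in 18 (25.0% against 9.9%), the YY1 letters in 7 (9.7% against 2.6%), the oestrogen-related receptor letters in 2 (2.8% against 0.5%) and the cyclic AMP letters in 4 (5.6% against 2.0%). At least 1 of the motifs was in 35 windows (48.6%), against 16.1% of all genes. The 27025 genes were not filtered by expression, whereas the 90 were, so the shares come from unlike sets. A match is only a run of letters and no binding was measured. Genes with no window in the table included Atp5a1, Atp5f1, Atp5mpl, Atp5s, Cox4i1, Cox4i2, Cox6a2, Cox6c, Cyc1, Ndufa2, Ndufaf6, Ndufb9, Ndufs1, Sdhc, Uqcrb, Uqcrc2 and Uqcrq.

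Windows of 5 genes of complexes I, II, IV and V that are described below are shown as examples of matches, on the gene's own strand, with motif matches in capitals. Cox6a1 (chr5:115348909-115349208, minus strand) holds the NRF1 letters on both strands, in overlapping runs that begin 162 and 160 bases before the start, and the ETS letters 16 bases before it. Cox8a (chr19:7217567-7217866, minus strand) holds the ETS letters 5 bases before and 33 bases after the start. Atp5k (chr5:108434350-108434649, minus strand), which encodes the small membrane subunit e of the ATP synthase, holds the NRF1 letters 50 and 48 bases before the start, again overlapping, and the ETS letters 13 bases after it. Sdhd (chr9:50603800-50604099, minus strand) holds the ETS letters 46 bases before the start and the oestrogen-related receptor letters 37 bases after it. Ndufs8 (chr19:3912725-3913024, minus strand), which encodes an iron-sulfur subunit of complex I, holds the ETS letters 16 bases after the start.
Cox6a1: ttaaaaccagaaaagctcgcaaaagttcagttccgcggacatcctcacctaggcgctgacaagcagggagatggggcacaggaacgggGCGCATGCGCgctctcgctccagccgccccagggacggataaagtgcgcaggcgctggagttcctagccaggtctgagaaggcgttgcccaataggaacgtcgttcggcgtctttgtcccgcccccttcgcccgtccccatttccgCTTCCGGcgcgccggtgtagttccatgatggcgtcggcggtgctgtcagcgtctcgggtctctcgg
Cox8a: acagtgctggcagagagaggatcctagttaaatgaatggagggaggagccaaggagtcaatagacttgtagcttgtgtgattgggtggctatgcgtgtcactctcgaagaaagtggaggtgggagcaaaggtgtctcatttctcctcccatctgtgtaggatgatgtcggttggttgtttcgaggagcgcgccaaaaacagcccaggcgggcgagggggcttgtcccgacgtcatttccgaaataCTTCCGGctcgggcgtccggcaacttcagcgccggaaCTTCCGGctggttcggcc
Atp5k: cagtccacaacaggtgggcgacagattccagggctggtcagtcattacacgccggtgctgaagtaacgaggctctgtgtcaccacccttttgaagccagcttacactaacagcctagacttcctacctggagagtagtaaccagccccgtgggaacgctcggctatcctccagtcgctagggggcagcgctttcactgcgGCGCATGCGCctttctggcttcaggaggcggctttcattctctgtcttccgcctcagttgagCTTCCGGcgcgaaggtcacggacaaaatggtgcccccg
Sdhd: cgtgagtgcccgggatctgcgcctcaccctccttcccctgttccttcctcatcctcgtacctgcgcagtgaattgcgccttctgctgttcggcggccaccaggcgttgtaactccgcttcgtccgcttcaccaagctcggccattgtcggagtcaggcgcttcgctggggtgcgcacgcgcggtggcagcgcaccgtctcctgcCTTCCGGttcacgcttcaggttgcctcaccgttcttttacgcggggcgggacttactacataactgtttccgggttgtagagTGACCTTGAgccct
Ndufs8: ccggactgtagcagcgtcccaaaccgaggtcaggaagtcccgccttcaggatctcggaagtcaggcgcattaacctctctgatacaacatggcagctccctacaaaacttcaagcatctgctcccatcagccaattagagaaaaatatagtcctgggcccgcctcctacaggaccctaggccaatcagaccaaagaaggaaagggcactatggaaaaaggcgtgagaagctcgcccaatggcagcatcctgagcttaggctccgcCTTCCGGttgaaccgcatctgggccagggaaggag

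The comparison of vehicle-treated GL261 tumours with naive brain at 21 DPI asked how CD11b+ cells of a tumour-bearing hemisphere differ from those of a healthy brain. Of the 87 genes that passed the level filter, 77 were higher in the tumour-bearing hemisphere, 4 were lower and 6 did not pass an adjusted p of 0.05 in limma. Among all 9727 genes tested, 34.6% were higher and 48.2% lower. The median log2 fold change, on the scale log2(RPKM + 1), was 0.88 over the 87 genes and -0.14 over all genes. Cox4i2, Cox6b2 and Cox7a1 were under the filter in these samples. Of the 21 core subunits, which carry the catalytic centres or the conserved core of each complex, 18 were higher and none lower, with a median of 0.50.

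The largest median was that of complex IV. Of its 13 genes tested, 12 were higher, and the median was 1.43 on the log2 scale. Cox5b (chr1:36691449-36693681 in mm10, plus strand), a matrix-side subunit of the complex, read 21.52, 22.89 and 19.86 RPKM in naive brain and 80.02, 83.59 and 77.23 RPKM with vehicle. The groups were far apart (log2 fold change 1.86 ± 0.07 SE, adjusted p = 8.31e-08), and a similar rise was seen for its partner Cox5a, from 15.1 to 51.3 RPKM (1.70 ± 0.05, adjusted p = 4.73e-08). Cox8a read 107, 99.83 and 88.03 RPKM in naive brain against 281.3, 326 and 289.1 RPKM (1.60 ± 0.09, adjusted p = 8.42e-07). Cox7a2, the common isoform of another small subunit, rose 3.01-fold and its relative Cox7a2l rose 1.48-fold. The exception was Ndufa4, once counted with complex I and now with complex IV, which fell from 26.6 ± 1.82 to 23.1 ± 1.35 RPKM (-0.19 ± 0.07, adjusted p = 0.0305).

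In complex V, 16 of 17 genes were higher, with a median of 0.98. Atp5k (chr5:108433244-108434448, minus strand) read 29.44, 28.82 and 24.1 RPKM in naive brain and 91.05, 85.4 and 86.79 RPKM with vehicle, with no overlap (1.65 ± 0.08, adjusted p = 4.12e-07). Atp5mpl, a small proteolipid of the same enzyme, rose from 12.2 to 38.8 RPKM (1.59 ± 0.06, adjusted p = 1.41e-07). The head subunits rose less: Atp5b from 87.2 to 167.7 RPKM (0.93 ± 0.06) and Atp5a1 from 126.4 to 164.2 RPKM (0.37 ± 0.06). All 3 genes of the membrane c-ring, which encode the same mature protein, were higher, by 0.98 for Atp5g1, 0.73 for Atp5g2 and 1.16 for Atp5g3. Atp5s, a coupling factor, was the complex V gene that fell, from 2.421, 2.023 and 2.062 RPKM to 0.6892, 0.7407 and 0.6193 RPKM (-0.91 ± 0.07, adjusted p = 7.81e-06). It passed the level filter only through the naive samples, which fixed its direction.

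In complex III, 8 of 9 genes were higher, with a median of 0.98. Uqcrq, a small subunit, rose from 14.3 ± 0.907 to 41.6 ± 2.65 RPKM (1.48 ± 0.07, adjusted p = 3.33e-07), and Uqcr10, another, from 34.1 to 81.7 RPKM (1.23 ± 0.06). Of the redox subunits, the Rieske iron-sulfur protein Uqcrfs1 rose 2.20-fold and Cyc1, the cytochrome c1 gene, 1.40-fold. The core protein Uqcrc2 did not pass the test (0.12, adjusted p = 0.0707). In complex II, Sdhd read 40.06, 40.88 and 41.56 RPKM in naive brain and 81.29, 87.66 and 75 RPKM with vehicle (0.97 ± 0.07, adjusted p = 2.51e-06), and the iron-sulfur subunit Sdhb rose from 27.1 to 53.6 RPKM (0.96 ± 0.06, adjusted p = 1.86e-06). The flavoprotein Sdha, where succinate is oxidized, read 47.94, 48 and 48.8 RPKM in naive brain and 47.56, 48.09 and 41.17 RPKM with vehicle, and the groups overlapped (-0.08 ± 0.07, adjusted p = 0.287).

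In complex I, 34 of 36 genes were higher, with a median of 0.69. Ndufa1 (chrX:37187588-37191163, minus strand), the shortest of the 90 genes, read 35.45, 36.07 and 33.08 RPKM in naive brain and 94.23, 91.94 and 83.27 RPKM with vehicle (1.34 ± 0.07, adjusted p = 4.14e-07). Ndufb6, an accessory subunit of the membrane arm, rose from 17.1 to 42.8 RPKM (1.28 ± 0.07, adjusted p = 5.5e-07). The core subunits moved less: Ndufv1, which binds NADH and flavin, rose by 0.53 on the log2 scale and Ndufs8 by 0.25. Ndufs1, the longest of the 90 genes, and Ndufa9 did not pass the test (-0.13, adjusted p = 0.112, and -0.03, adjusted p = 0.680). For Ndufs8 the value of 0.25 ± 0.06 turned to -0.16 after length correction.

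The assembly factors of complex I did not share this pattern. Of the 8, 4 were higher and 2 lower, with a median of 0.09. Ndufaf7 (chr17:78937136-78948052, plus strand) read 8.115, 7.469 and 7.652 RPKM in naive brain and 3.185, 2.759 and 2.701 RPKM with vehicle (-1.17 ± 0.07, adjusted p = 1.05e-06). Ndufaf8 rose from 8.52 to 15.7 RPKM (0.82 ± 0.08, adjusted p = 3.06e-05). Ndufaf2, whose product binds a late assembly intermediate, fell from 1.45 to 1.18 RPKM (-0.17 ± 0.07, adjusted p = 0.0477), while Ndufaf1 (-0.08, adjusted p = 0.344) and Ndufaf4 (-0.13, adjusted p = 0.200) did not pass.

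**Figure D2:**
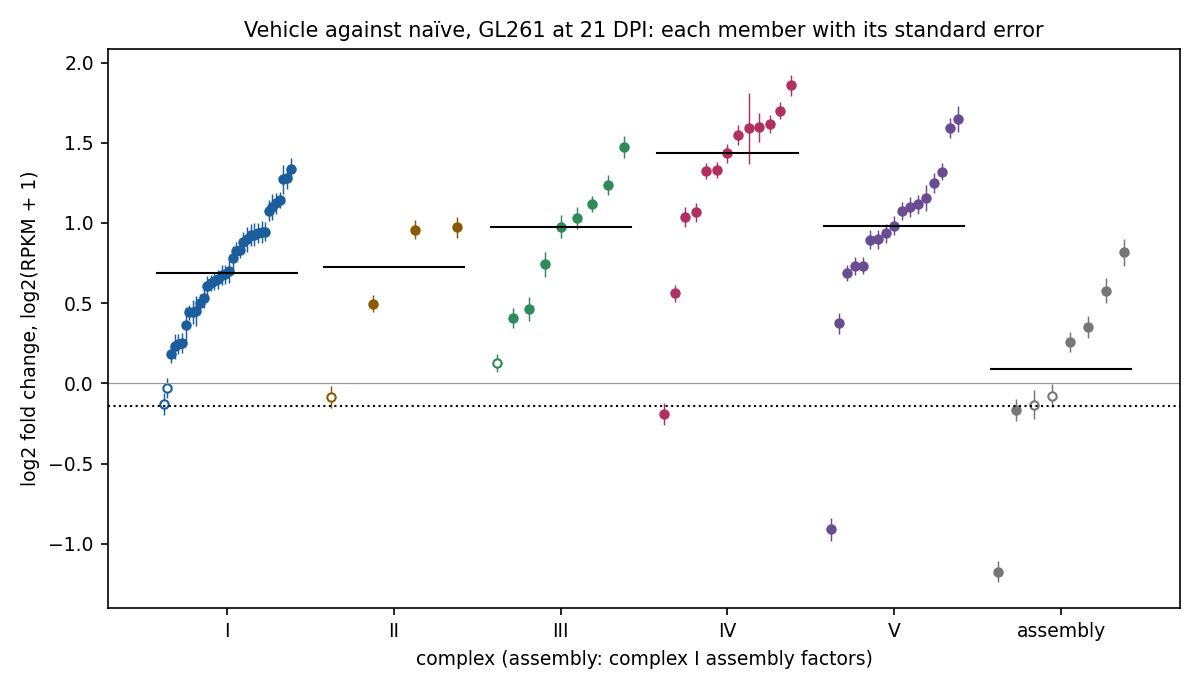
Log2 fold change (vehicle over naive, 21 DPI, log2(RPKM + 1) scale) of each nuclear oxidative phosphorylation gene, grouped by complex; filled points had an adjusted p under 0.05 and open points did not, whiskers are SE, bars are medians of a complex and the dotted line is the median of all genes tested. The medians were 0.69 in complex I, 0.73 in II, 0.98 in III, 1.43 in IV, 0.98 in V and 0.09 in the assembly factors.

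The fold changes also moved with exonic length. The contrasts above between small and larger subunits therefore also set short genes against longer ones. Atp5b (4237 bp), Atp5a1 (3135 bp) and Sdha (4126 bp) are longer than Atp5k (616 bp) and Sdhd (1231 bp). Likewise the core complex I genes Ndufv1 and Ndufs8 are longer than Ndufa1 and Ndufb6. Among genes under 1 kb, the median log2 fold change was 0.76 over all 211 genes and 1.07 over the 19 members, all higher. From 1 to 2 kb it was 0.37 over all genes and 0.93 over 34 members, of which 32 were higher and 1 lower. At 2 kb and over it was -0.20 over all genes and 0.62 over 34 members, of which 26 were higher and 3 lower. After length correction 63 members were higher and 7 lower, where 41.4% of all genes were higher and 39.5% lower, with a median of 0.54 against 0.02 over all genes. The corrected medians were 0.44 in complex I, 0.56 in complex II, 0.38 in complex III, 0.80 in complex IV, 0.91 in complex V and -0.03 in the assembly factors, so the order of the complexes changed. With trimmed-mean scaling, which moved the median of all genes by 0.15 to 0.00, the median of the members was 1.03.

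**Figure D3:**
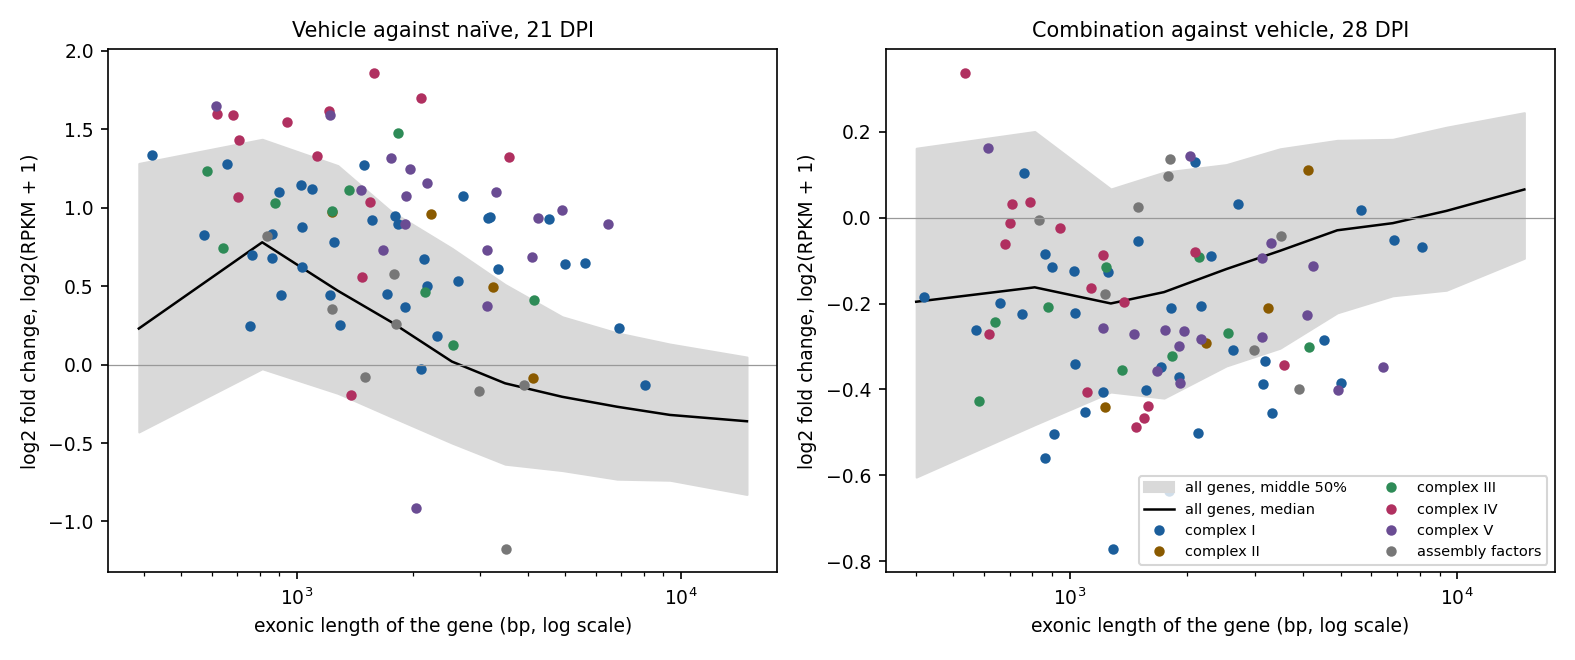
Log2 fold change of each nuclear oxidative phosphorylation gene against its exonic length in bp (log axis), for vehicle over naive at 21 DPI and for the combination over vehicle at 28 DPI, with the median of all genes as a line and their middle 50% as a grey band. In the first comparison the members under 1 kb had a median of 1.07 and all genes of that length 0.76, and in the second these were -0.11 and -0.17.

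Other mitochondrial genes did not all follow. Of the 13 mitochondrially encoded subunits, 7 passed the filter and 5 of these fell, led by mt-Nd2 (-1.05 ± 0.12, adjusted p = 5.36e-05), mt-Cytb (-0.94 ± 0.11) and mt-Nd5 (-0.87 ± 0.13), while mt-Co1 gave 0.01 (adjusted p = 0.95) before and -0.29 after length correction. The list summed to 3946 to 5248 RPKM in naive brain and 2908 to 3458 RPKM with vehicle. In every sample mt-Co2, mt-Co3, mt-Atp6, mt-Atp8 and mt-Nd4l stayed at or under 0.5005 RPKM, as the table lists them, so these rows say nothing about the genes. Of the tricarboxylic acid cycle genes, 10 of 16 were higher and 2 lower. Among the carriers and cytochrome c, 8 of 9 were higher and 1 lower, led by Cycs, the cytochrome c gene, which rose from 5.01 to 20.6 RPKM (1.85 ± 0.09, adjusted p = 4.51e-07), and by the uncoupling protein Ucp2 (1.42 ± 0.11). Of 13 regulators of mitochondrial biogenesis, 11 were lower and 2 higher. These included Gabpb1, a subunit of GABP (-0.86 ± 0.07, adjusted p = 6.17e-06), while the coactivator Ppargc1b rose from 0.490 to 3.01 RPKM (1.39 ± 0.18, adjusted p = 1.35e-04). At 0.490 RPKM in naive brain, Ppargc1b passed the filter only through the vehicle samples, which fixed its direction. Of 36 assembly factors outside the 90 genes, 15 were higher and 12 lower, where 34.6% of all genes were higher and 48.2% lower. Outside mitochondrial respiration, 76 of 77 cytosolic ribosomal protein genes, 53 of 77 mitochondrial ribosomal protein genes and 31 of 37 proteasome genes were higher.

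Cell type markers differed between these groups too. All 10 microglial markers were lower with vehicle, from a sum of 17440 to 18040 RPKM in naive brain to 1438 to 2107 RPKM, and 9 of 10 monocyte and macrophage markers were higher, from 408 to 456.4 RPKM to 5929 to 7006 RPKM. Of 9 neutrophil markers, 6 were lower and 1 higher, from 423.1 to 546.8 RPKM to 137 to 275.9 RPKM. Of 11 T and NK cell markers only 2 reached the filter, both higher, and the list summed to 0.697 to 1.60 RPKM in naive brain and 9.61 to 29.1 RPKM with vehicle. These 2, Gzma and Gzmb, averaged 0.2282 and 0.08234 RPKM in naive brain. They passed the filter only through the vehicle samples, which fixed their direction. The dendritic cell list of 8 summed to 27.63 to 31.44 RPKM in naive brain and 199.9 to 228.1 RPKM with vehicle (3 of 5 tested higher), the endothelial list of 7 to 11.6 to 13.54 and 24.13 to 45.5 RPKM (2 of 3 higher). The oligodendrocyte list of 10 summed to 38.69 to 39.9 RPKM in naive brain and 48.93 to 56.68 RPKM with vehicle (3 of 5 higher, 1 lower), and the astrocyte list of 7 to 22.62 to 24.08 and 17.12 to 21.77 RPKM (3 of 4 higher, 1 lower). The astrocyte gene that fell was Slc1a3, from 20.15 to 2.993 RPKM on average. B cell markers summed to 17.06 to 19.25 and 6.94 to 8.22 RPKM (1 of 1 lower), neuronal markers to 0.577 to 0.738 and 1.78 to 2.85 RPKM (1 of 1 higher) and proliferation genes to 32.59 to 34.76 and 60.1 to 71.57 RPKM (7 of 8 higher). Flt3, Ccr7, Flt1, Sox10, Olig1, Aldh1l1, Gfap and Tubb3 also averaged under 1 RPKM in naive brain, so the filter fixed their direction. None of the listed markers was at 0 in all samples. The part of these cells in the changes of the oxidative phosphorylation genes was not tested.

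At 21 DPI neither peptide moved an oxidative phosphorylation gene past the test in GL261 tumours. With 7aaRGD against vehicle, 0 of 89 genes passed and the median was -0.03, against 0.02 over all 9440 genes, of which 0.148% passed. At an unadjusted p under 0.05 there were 4 members and 1278 genes in all. In 2 members the 7aaRGD samples lay wholly below the vehicle samples, where 5.11% of all genes did. The gene with the smallest p was Ndufaf2, which read 1.247, 1.135 and 1.15 RPKM with vehicle and 1.514, 1.538 and 1.619 RPKM with 7aaRGD (0.23 ± 0.05, adjusted p = 0.151). In the other direction it was Sdhb, at 53.15, 57.65 and 50.13 RPKM with vehicle against 44.55, 42.02 and 51.54 RPKM (-0.22 ± 0.08, adjusted p = 0.303), where the groups overlapped. The third 7aaRGD sample was the highest of its group in 84 of the 90 genes.

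With 7aaRAE against vehicle, 0 of 89 genes passed, as did 0% of all genes, and the medians were -0.05 and 0.00. At an unadjusted p under 0.05 there were 7 members and 600 genes in all, and 11 members lay wholly below vehicle, against 6.49% of all genes. Cox4i2, the isoform of Cox4i1 known from lung and low oxygen, read 1.146, 1.433 and 1.92 RPKM with vehicle and 0.5894, 0.9739 and 0.5606 RPKM with 7aaRAE (-0.55 ± 0.13, adjusted p = 0.718). Ndufaf2 gave 0.11 ± 0.05 (adjusted p = 0.718). Between the peptides, which differ in the RGD motif, 0 of 89 members and 0% of all genes passed, with medians of 0.02 and 0.02 and with 1 member and 520 genes at an unadjusted p under 0.05. The smallest p upward was that of Ndufaf2 (0.13 ± 0.05, adjusted p = 0.892) and the smallest downward that of Cox6a2, the heart and muscle isoform of Cox6a1 (-0.29 ± 0.19, adjusted p = 0.992). The 3 comparisons share samples, and their values stand side by side only.

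At 28 DPI the question was what 7aaRGD, anti-PD-1 and their combination did to the same genes. All 90 passed the filter, and each treatment was set against the same 4 vehicle samples. With 7aaRGD, 0 of 90 passed, where 0.123% of all 9737 genes were higher and 0.524% lower. Of the 90, 79 (87.8%) had a negative fold change, against 45.6% of all genes. An unadjusted p under 0.05 was reached by 35 (1423 genes in all). In 21 the 7aaRGD samples lay wholly below vehicle, against 4.06% of all genes. The median was -0.13, against 0.01 over all genes, and -0.05 after length correction. The smallest p fell on Ndufa6, an accessory complex I subunit, at 55.92, 46.78, 51.72 and 46.63 RPKM with vehicle against 43.7, 38.72, 41.38 and 31.39 RPKM with 7aaRGD (-0.37 ± 0.09, adjusted p = 0.103). In the other direction it fell on Cox7a1, at 0.960 ± 0.450 against 1.55 ± 0.481 RPKM (0.39 ± 0.19, adjusted p = 0.358).

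With anti-PD-1, 24 of the 90 genes were lower and 1 higher, where 12.2% of all genes were lower and 10.8% higher. The median was -0.12, against -0.01 over all genes. By complex, 14 of 36 fell in complex I, 1 of 4 in complex II, 1 of 9 in complex III, 6 of 16 in complex IV and 2 of 17 in complex V, and of the assembly factors none passed in either direction (-0.01 median over 8). After length correction 17 were lower and 5 higher, where 11.8% of all genes were lower and 12.2% higher, with a median of -0.07 against 0.00 over all genes. Without the second anti-PD-1 sample 16 passed in place of 25.

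With the combination, 49 of the 90 genes were lower, 0 were higher and 41 did not pass, where 25.8% of all genes were lower and 17.5% higher. The median was -0.24, against -0.05 over all genes. Of the 21 core subunits, 14 were lower and 0 higher. By complex, 21 of 36 fell in complex I (median -0.24), 3 of 4 in complex II (-0.25), 6 of 9 in complex III (-0.27), 6 of 16 in complex IV (-0.12), 11 of 17 in complex V (-0.26) and 2 of 8 assembly factors (-0.02). After length correction 28 were lower and 11 higher, where 20.4% of all genes were lower and 21.9% higher, with a median of -0.06 against 0.00 over all genes, so that calls in both directions appeared.

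Ndufs8 (chr19:3908863-3912774, minus strand), whose product carries iron-sulfur clusters towards the ubiquinone site, was the complex I gene that moved most. It read 63.95, 61.68, 62.51 and 58.97 RPKM with vehicle, 54.73, 53.42, 55.13 and 54.18 RPKM with 7aaRGD, 43.62, 40.34 and 46.36 RPKM with anti-PD-1 and 33.48, 36.84 and 37.11 RPKM with the combination. The 4 ranges did not overlap. Against vehicle, 7aaRGD did not pass (-0.18 ± 0.06, adjusted p = 0.165), anti-PD-1 gave -0.50 ± 0.06 (adjusted p = 2.13e-04) and the combination gave -0.77 ± 0.06 (adjusted p = 1.75e-06). Ndufa6 (chr15:82350140-82354322, minus strand) read 36.31, 37.03 and 32.17 RPKM with anti-PD-1 (-0.50 ± 0.10, adjusted p = 0.00403) and 31.46, 32.45 and 31.79 RPKM with the combination (-0.64 ± 0.10, adjusted p = 2.99e-04). With the combination the accessory subunits Ndufa8 and Ndufb11 fell by 0.56 and 0.50 on the log2 scale, and the core subunits Ndufv2 and Ndufv1, both of the NADH-oxidizing module, by 0.50 and 0.31. Ndufs1, a core subunit as well, did not pass (-0.07, adjusted p = 0.444).

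In complex II, Sdhd (chr9:50596357-50603812, minus strand) read 93.31, 83.65, 79.55 and 86.28 RPKM with vehicle, 63.62, 66.19 and 74.57 RPKM with anti-PD-1 and 60.21, 64.58 and 63.64 RPKM with the combination. Both treated groups lay below vehicle (-0.33 ± 0.08, adjusted p = 0.0100, and -0.44 ± 0.08, adjusted p = 6.86e-04). With the combination Sdhb fell from 52.8 to 42.9 RPKM (-0.29 ± 0.06, adjusted p = 0.00237) and Sdhc from 26.0 to 22.3 RPKM (-0.21 ± 0.08, adjusted p = 0.0489). Sdha, the catalytic flavoprotein, again stood apart from the other 3, at 40.31 to 46.84 RPKM with vehicle and 43.91 to 50.22 RPKM with the combination (0.11 ± 0.09, adjusted p = 0.329).

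In complex III, Uqcr10 read 101.9, 93.2, 96.9 and 91.12 RPKM with vehicle and 69.05, 75.77 and 68.29 RPKM with the combination, without overlap (-0.43 ± 0.08, adjusted p = 0.00129). Uqcrfs1 fell with the combination from 63.5 to 49.4 RPKM (-0.36 ± 0.10, adjusted p = 0.0102) and with anti-PD-1 to 50.4 RPKM (-0.32 ± 0.10, adjusted p = 0.0315). The core proteins Uqcrc1 (-0.30, adjusted p = 0.00382) and Uqcrc2 (-0.27, adjusted p = 0.00183) fell with the combination, and Cyc1 did not pass (-0.09, adjusted p = 0.334).

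Complex IV was split. Cox4i1 (chr8:120668222-120674207, plus strand), the common isoform of the largest nuclear subunit, was lower with anti-PD-1 and the combination, as was Cox7a2l. Cox4i1 means were 204.5 ± 3.22 RPKM with vehicle, 182.9 ± 9.63 with 7aaRGD, 162 ± 9.89 with anti-PD-1 (-0.34 ± 0.06, adjusted p = 0.00198) and 147.7 ± 1.86 with the combination (-0.47 ± 0.06, adjusted p = 5.65e-05). Cox7a2l read 137.5 to 150.9 RPKM with vehicle, 105.7 to 106.9 RPKM with anti-PD-1 (-0.43 ± 0.07, adjusted p = 0.00173) and 95.38 to 110.6 RPKM with the combination (-0.49 ± 0.07, adjusted p = 2.05e-04). Cox5b fell from 81.9 to 60.2 RPKM with the combination (-0.44 ± 0.09, adjusted p = 0.00145) and Cox6c, another accessory subunit, from 22.7 to 17.7 RPKM (-0.34 ± 0.07, adjusted p = 0.00133). In contrast to these, several abundant small subunits did not pass. Cox6a1 read 143.5, 160.4, 166 and 152.8 RPKM with vehicle and 149.4, 162.1 and 151.2 RPKM with the combination (-0.01 ± 0.08, adjusted p = 0.912). Cox6b1 (0.03, adjusted p = 0.648), Cox7a2 (-0.02, adjusted p = 0.765) and Cox5a (-0.08, adjusted p = 0.554) likewise overlapped vehicle. After length correction Cox6a1 gave 0.21 and Cox7a2 0.19, so the sign for these short genes rested on the scale. With anti-PD-1 the gene past the test in the upward direction was Cox6a2, whose groups overlapped (3.68 ± 0.855 against 5.43 ± 1.39 RPKM, 0.45 ± 0.15, adjusted p = 0.0385). The testis isoform Cox6b2 fell from 1.38 to 0.646 RPKM with anti-PD-1 (-0.52 ± 0.11, adjusted p = 0.00492).

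In complex V, Atp5d (chr10:80138632-80145818, plus strand), a subunit of the central stalk, read 77.64, 76.37, 79.9 and 78.02 RPKM with vehicle, 72.49, 65.65, 65.84 and 66.83 RPKM with 7aaRGD, 66.66, 65.9 and 64.71 RPKM with anti-PD-1 and 59.81, 63.31 and 55.43 RPKM with the combination. The fold change was -0.24 ± 0.06 with anti-PD-1 (adjusted p = 0.0106) and -0.39 ± 0.06 with the combination (adjusted p = 2.16e-04), and with 7aaRGD it did not pass (-0.20 ± 0.05, adjusted p = 0.118). The c-ring gene Atp5g1 fell with the combination from 12.7 to 9.42 RPKM (-0.40 ± 0.08, adjusted p = 0.00179). The other complex V gene named by size with anti-PD-1 was Atp5l, the membrane subunit g, at 4.47 against 3.63 RPKM (-0.24 ± 0.08, adjusted p = 0.0338). Of the catalytic head, Atp5a1 fell with the combination (-0.28 ± 0.06, adjusted p = 0.00340) and Atp5b did not pass (-0.11 ± 0.06, adjusted p = 0.131). Atp5k, one of the shortest genes, gave 0.16 ± 0.08 (adjusted p = 0.118). Of the assembly factors, Ndufaf4 fell from 2.52 to 1.67 RPKM (-0.40 ± 0.10, adjusted p = 0.00755) and Ndufaf2 from 2.11 to 1.51 RPKM (-0.31 ± 0.09, adjusted p = 0.0136).

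**Figure D4:**
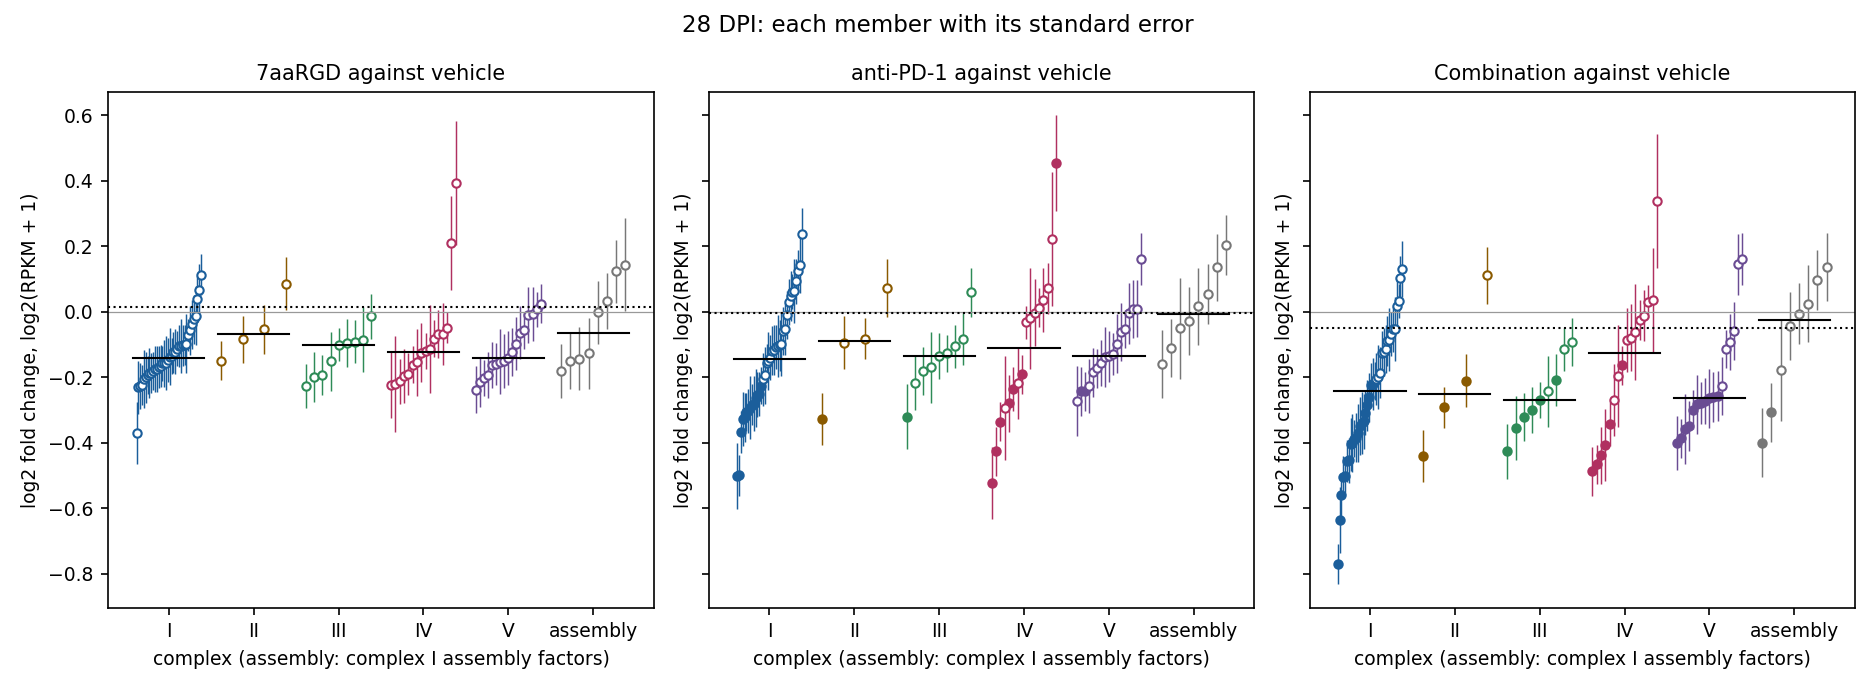
Log2 fold change against vehicle at 28 DPI (log2(RPKM + 1) scale) of each nuclear oxidative phosphorylation gene by complex, for 7aaRGD, anti-PD-1 and the combination, which share the vehicle samples; filled points had an adjusted p under 0.05, open points did not, whiskers are SE, bars are medians of a complex and the dotted line is the median of all genes. With 7aaRGD 0 points are filled, with anti-PD-1 25 and with the combination 49, all of the latter below 0.

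By length, the combination gave a median of -0.11 over the 21 members under 1 kb, of which 6 were lower, and -0.17 over all genes of that length, of which 33.9% were lower. From 1 to 2 kb the medians were -0.30 over the 35 members (25 lower) and -0.18 over all genes (39.2% lower). At 2 kb and over they were -0.25 over the 34 members (18 lower) and -0.03 over all genes (23.9% lower). The lower share was therefore seen in the members of longer exonic length too, while the members under 1 kb stood near other genes of their length. Exonic length does not show how long the transcripts of these members were.

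Set directly against anti-PD-1, the combination moved 0 of 90 genes past the test, where 0.0411% of all genes passed. Of the 90, 79 (87.8%) had a negative fold change, against 61.1% of all genes. An unadjusted p under 0.05 was reached by 17 (1460 genes in all), and 24 lay wholly below anti-PD-1, against 15.3% of all genes. The median was -0.11, against -0.04 over all genes. The smallest p downward was that of Ndufs8 (-0.27 ± 0.07, adjusted p = 0.0872) and, upward, of Cox4i2 (0.33 ± 0.17, adjusted p = 0.380). Against 7aaRGD, the combination lowered 19 and raised 2 of the 90 genes, where 23.5% of all genes were lower and 13.0% higher, with medians of -0.13 and -0.07. The share of the members that was lower (21.1%) was thus no larger than that of all genes. Ndufs8 (-0.59 ± 0.06, adjusted p = 3.25e-05), Ndufa8 (-0.37 ± 0.07), Sdhd (-0.36 ± 0.08), Cox4i1 (-0.30 ± 0.06) and Atp5a1 (-0.30 ± 0.06) were lower. Uqcr10 (-0.23), Uqcrc1 (-0.21) and Cox7a2l (-0.28) were lower as well, and the 2 higher genes were Ndufb3 (0.20, adjusted p = 0.0252) and Atp5k (0.28, adjusted p = 0.0137). With trimmed-mean scaling 12 were lower and 4 higher, after length correction 9 lower and 3 higher (16.7% and 17.8% of all genes), and without the first combination sample 12 passed in place of 21. The interaction, which asks whether the combination differed from the sum of its parts, passed for 0 of 90 genes and 0% of all genes, with medians of 0.02 and -0.06 and with 2 members and 794 genes at an unadjusted p under 0.05. Its smallest p downward was that of Ndufs1 (-0.27 ± 0.10, adjusted p = 0.588) and upward that of Cox4i2 (0.55 ± 0.22, adjusted p = 0.593).

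The mitochondrially encoded subunits were lower too. With the combination 5 of 8 tested fell, led by mt-Nd6 (-1.02 ± 0.16, adjusted p = 2.18e-04), mt-Nd1 (-0.94 ± 0.19) and mt-Co1 (-0.76 ± 0.19), and the list summed to 6837 to 7150 RPKM against 9550 to 13910 RPKM with vehicle. With anti-PD-1 mt-Nd1 (-0.57, adjusted p = 0.0463) and mt-Nd3 (-0.95, adjusted p = 0.0436) fell. With the combination 10 of 16 tricarboxylic acid cycle genes were lower, led by Idh3g, a subunit of isocitrate dehydrogenase (-0.63 ± 0.07, adjusted p = 1.78e-05). Of the 9 carrier genes 6 were lower and 1 higher, among them Ucp2 (-0.67 ± 0.10) and the ATP/ADP carriers Slc25a4 (-0.54 ± 0.09) and Slc25a5 (-0.47 ± 0.09). Of the 36 other assembly factors 9 were lower, led by Sdhaf1, an assembly factor of complex II (-1.03 ± 0.14, adjusted p = 7.47e-05), and 3 higher. Their lower share was near that of all genes, of which 25.8% were lower and 17.5% higher with the combination. Of 12 regulators of biogenesis 0 passed in either direction. The largest change of this kind lay outside the mitochondrion, since 76 of 77 cytosolic ribosomal protein genes were lower with the combination, with a sum of 21450 to 23610 RPKM against 36440 to 37800 RPKM with vehicle, and 75 of 77 with anti-PD-1. Of the mitochondrial ribosomal protein genes 44 of 77 were lower. Of 38 proteasome genes 8 were lower and 4 higher, a lower share no larger than that of all genes.

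Cell type markers moved with the combination as well. Of 10 monocyte and macrophage markers 5 were higher and 2 lower, with a sum of 3012 to 3815 RPKM with vehicle and 5848 to 7900 RPKM with the combination, and 6 of 10 microglial markers were higher, from 1660 to 2364 RPKM to 2549 to 2725 RPKM. Of 11 T and NK cell markers 6 reached the filter and 5 of these were higher, from 4.3 to 13.38 RPKM to 31.06 to 91.64 RPKM, while Cd3e, Cd3d and Cd8a stayed at or under 1.318 RPKM in every sample. Of 9 neutrophil markers 1 was higher and 1 lower. All 3 endothelial markers tested were higher, with a list sum of 5.67 to 11.8 RPKM with vehicle and 16.1 to 22.8 RPKM with the combination, and 2 of 4 astrocyte markers, with 13.35 to 22.29 and 25.33 to 33.1 RPKM. Of 7 oligodendrocyte markers tested 2 were higher and 3, Sox10 (-1.60), Olig1 (-1.77) and Olig2 (-1.39), lower, with 47.86 to 64.29 and 48.27 to 54.18 RPKM. Of 4 dendritic cell markers 2, Cd209a (2.45) and Ccr7 (1.94), were higher and 1, Itgax (-0.61), lower. The list summed to 197.8 to 248 RPKM with vehicle and 129.3 to 190.6 RPKM with the combination. Most of this sum was Itgax, which averaged 206 and 136.5 RPKM. The neuronal marker tested and 2 of 10 proliferation genes were lower, and the B cell marker tested did not pass. Ncr1, Nkg7, Prf1, Cd209a, Ccr7 and Kdr averaged under 1 RPKM with vehicle and reached the filter through other groups. For these markers the filter favoured a higher call. Olig2 averaged under 1 RPKM with the combination, which favoured a lower call. With anti-PD-1 all 3 endothelial markers were higher as well, the monocyte and macrophage list summed to 4932 to 6890 RPKM and the T and NK cell list to 3.98 to 74.5 RPKM. Their part in the lower level of the oxidative phosphorylation genes was not tested.

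In U87-MG tumours at 21 DPI neither peptide moved any of the 87 genes past the test. With 7aaRGD against vehicle 0 of 87 members and 0% of all 9664 genes passed, and the lowest adjusted p among the members was 0.941. The fold change was negative in 76 members (87.4%), against 50.9% of all genes. Of the members, 7 had an unadjusted p under 0.05 (365 genes in all), and 33 lay wholly below vehicle, against 6.39% of all genes. The median was -0.12 against 0.00 over all genes, and -0.05 after length correction. Ndufc1, a small accessory subunit of complex I, had the smallest p, at 9.47 ± 0.438 RPKM with vehicle and 7.34 ± 0.481 RPKM with 7aaRGD (-0.33 ± 0.09, adjusted p = 0.941). Upward it was Ndufaf5, at 2.05 ± 0.122 against 2.32 ± 0.482 RPKM (0.11 ± 0.12, adjusted p = 0.941).

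With 7aaRAE 0 of 87 members passed, where 0.0103% of all genes did. The median was again -0.12 against 0.00 over all genes, with 10 members and 746 genes at an unadjusted p under 0.05, and 14 members lay wholly below vehicle, against 9.46% of all genes. The 7aaRAE samples were uneven. The second in column order was the highest of its group in 10 of the 90 genes, the others in 32 and 48. In Ndufa13 it read 32.85 RPKM, against 57.17 and 51.62 RPKM, and its summed level was the one below the vehicle range. The smallest p downward was that of Ndufaf7, at 7.80 ± 0.221 RPKM with vehicle and 5.67 ± 0.628 RPKM with 7aaRAE (-0.40 ± 0.11, adjusted p = 0.437), and upward that of Uqcrc2 (0.11 ± 0.10, adjusted p = 0.764). Between 7aaRGD and 7aaRAE 0 of 87 members and 0% of all genes passed, with medians of -0.02 and 0.00 and with 326 genes in all at an unadjusted p under 0.05. The smallest p upward was that of Cox6b2 (0.43 ± 0.13, adjusted p = 1.00) and downward that of Ndufa11, an accessory complex I subunit (-0.17 ± 0.07, adjusted p = 1.00). The microglial sum of 9477 to 12060 RPKM with vehicle in these tumours came from a table that was not compared with the others by a test.

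The isoform genes of complex IV kept their order in the 3 tables. Cox4i1 lay between 78.58 and 207.3 RPKM in the 21 DPI table of GL261 tumours and the 28 DPI table, and Cox4i2 at 0.02136, 0 and 0 RPKM in naive brain, 1.146, 1.433 and 1.92 RPKM with vehicle at 21 DPI, 1.188, 1.736, 2.941 and 1.706 RPKM with vehicle at 28 DPI and 0.2453, 0.0924 and 0.09602 RPKM with vehicle in U87-MG tumours. Cox6a2 was uneven between samples of a group. It read 14.94, 40.65 and 18.73 RPKM with vehicle in U87-MG tumours, 24.83, 7.325 and 16.72 RPKM with 7aaRGD and 32.49, 7.838 and 22.6 RPKM with 7aaRAE, so its spread within a group was as wide as the distance between group means. In GL261 tumours with vehicle it read 6.453, 7.337 and 3.921 RPKM at 21 DPI, above the naive samples at 1.913, 1.019 and 0.9083 RPKM (1.59 ± 0.22, adjusted p = 2.16e-04). In each group the common isoform Cox6a1 stood above it.

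**Figure D5:**
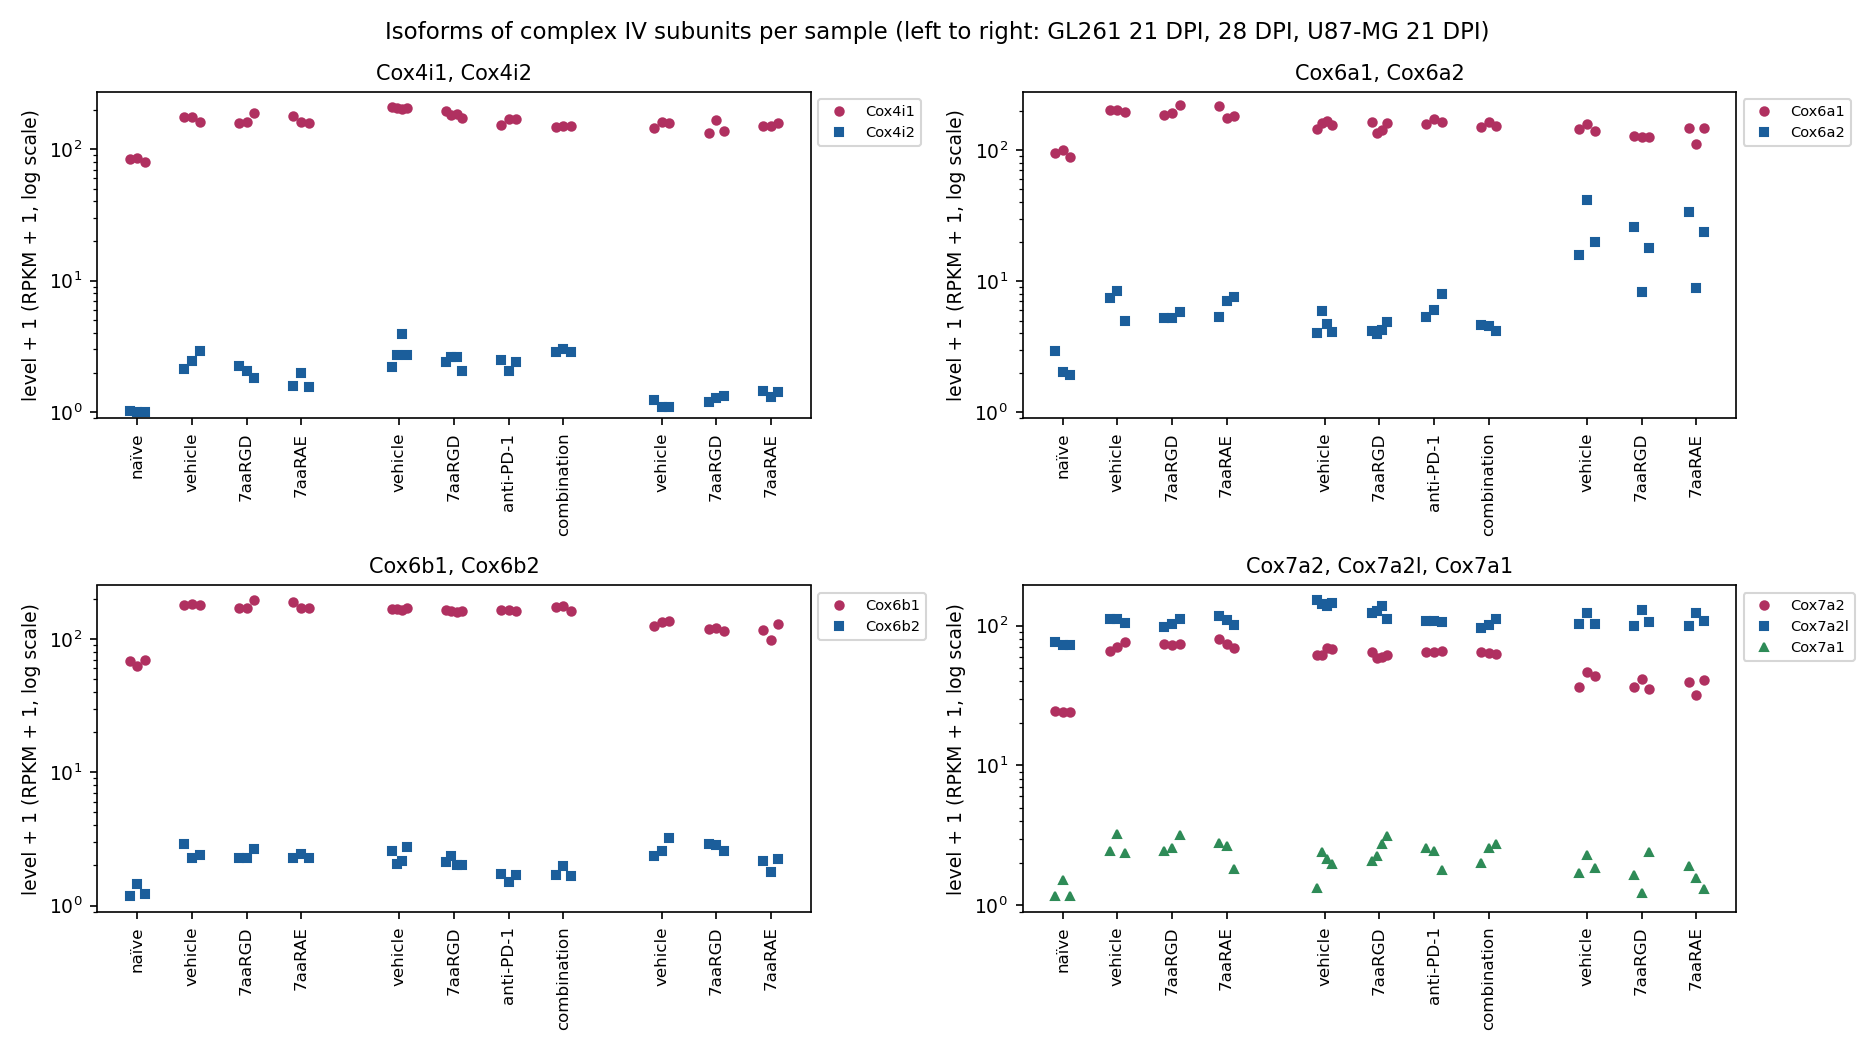
RPKM + 1 on a log axis, in each sample of the 3 tables (GL261 at 21 DPI, 28 DPI and U87-MG at 21 DPI, from left to right), of common and tissue-specific isoforms of complex IV subunits, with panels for Cox4i1 and Cox4i2, Cox6a1 and Cox6a2, Cox6b1 and Cox6b2, and Cox7a2, Cox7a2l and Cox7a1. Each point is a sample; Cox6a2 reached 40.65 RPKM in 1 vehicle sample of U87-MG tumours and lay at 0.9083 to 1.913 RPKM in naive brain.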

How the data were processed

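Poly-A RNA of sorted CD11b+ cells was measured in 35 samples with a column in one of 3 tables (12 from GL261 at 21 DPI, 14 at 28 DPI, 9 from U87-MG at 21 DPI), out of 40 labelled samples. By the labels and the methods of the study, Trimmomatic was used for trimming, STAR for alignment to mm10 and HTSeq 0.11.1 for strand-specific counts per gene, with a minimum mapping quality of 10. The deposited values are labelled normalized counts, but their sums over gene length showed them to be RPKM plus a constant of 2, which was subtracted. Between 12.6% and 14.0% of values fell under the constant and were set to 0. How the authors normalized them is not given in the sources used here. The depth of each library is unknown, so no counting interval was computed.

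Of 54513 rows, 98.8% matched the annotation, and 21894 protein-coding rows were kept. Those averaging 1 RPKM or more over the samples of a fit entered the limma test (version 3.58.1, R 4.3.3) as log2(RPKM + 1) values (trended variances, Benjamini-Hochberg adjustment over all genes tested, two-sided). Each table was fitted alone, at 21 DPI vehicle against naive apart from the peptide groups. The fit was tested on simulated data. Fold changes on this scale understate the change of low genes. NOISeq, the study's test, was not run. Python 3.11.15, pandas 2.3.3 and matplotlib 3.10.9 were used for figures and summaries.

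The genes and all gene lists were chosen with earlier results of these data known. In each comparison the text names, per complex, the 2 genes past the threshold with the largest fold change (where none passed, the smallest p in each direction), the core subunits and isoform genes, and up to 3 genes of each other pathway list. The others named, among them Ndufa9, Ndufa8, Ndufb11, Atp5s, Cox6c, Uqcr10 and the complex I assembly factors, were picked in some comparisons after their values were seen. The values of 1 gene are not reported here. Alternatives covered the pseudocount, level filter, scaling, length and GC correction, groups fitted, replicate block and each sample left out.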

Additional observations from a re-analysis of the deposited data

Results flagged for a closer look

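Of 92 groups of 4 samples checked, 3 held a sample far from its group. Chance flags about 1 in 20 groups. The 90 genes summed to 4270 RPKM in the first 7aaRGD sample at 28 DPI, where the other 3 read 3910 to 3959 RPKM. Complex IV summed to 1287 RPKM in the second vehicle sample at 28 DPI, where the other 3 read 1324 to 1329 RPKM. The complex I assembly factors summed to 37.74 RPKM in the first 7aaRGD sample at 28 DPI, where the other 3 read 36.77 to 36.88 RPKM.

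Effects of a peptide against vehicle were checked between tables. For 7aaRGD every table was used, and for 7aaRAE the GL261 and U87-MG tables at 21 DPI. Of 120 such checks, 2 had groups that did not overlap, in opposite directions. Cox4i2 read 0.708 RPKM with 7aaRAE against 1.5 RPKM with vehicle in GL261 tumours, and 0.3897 against 0.1446 RPKM in U87-MG tumours. Ndufaf2 read 1.345 RPKM with 7aaRAE against 1.177 RPKM with vehicle in GL261 tumours, and 1.204 against 1.614 RPKM in U87-MG tumours. The difference between the models was not tested in either case, and all these levels are low.

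Ndufb1-ps, a row dropped because its name holds the pseudogene mark, was expressed outside the 90 genes. At 21 DPI in GL261 tumours it averaged 53.26 RPKM with vehicle, 55.75 RPKM with 7aaRGD and 56.61 RPKM with 7aaRAE, above 11.81 RPKM in naive brain.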

How the results depend on the processing

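Of 305 counts of genes under alternative settings, 295 stayed within 1.5 times the value given and 10 moved. These counts pooled both directions, and a count of 0 that stayed at 0 was taken as unmoved. The comparisons without a call therefore add to the unmoved counts and say little about stability. The calls in both directions that appeared for the combination after length correction were also taken as unmoved. Requiring an absolute log2 fold change of 1 left 31 of 81 calls between vehicle and naive and 0 for anti-PD-1, the combination, and the combination against 7aaRGD. For the last, length correction left 12 of 21, and an adjusted p of 0.1 gave 32. The same threshold gave 1 call for the combination against anti-PD-1. Leaving out 1 sample at a time gave 78 to 81 calls for vehicle against naive, 16 (without the second anti-PD-1 sample) to 24 for anti-PD-1, 40 to 47 for the combination and 12 (without the first combination sample) to 25 for the combination against 7aaRGD, and 0 to 0 in the other comparisons.

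Length correction reversed 5 named genes: between vehicle and naive Ndufs1 (0.19), Ndufs8 (-0.16, with GC as well -0.13) and mt-Co1 (-0.29, with GC -0.36), and with the combination Cox6a1 (0.21, with GC 0.32) and Cox7a2 (0.19 in both). With the replicate block and length correction together these were 0.19, -0.16, -0.29, 0.22 and 0.20. The cause was not tested. Of the medians, 34 moved by more than the spread between replicates and 245 did not.

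Few same-numbered samples were correlated: 1 of 9 pairs at 21 DPI and 3 of 19 at 28 DPI correlated above 0.1. With 1 direction of within-group variation nearly absent in both tables, this check could not decide whether samples were paired. With a replicate block the calls were 80 for vehicle against naive, 19 for anti-PD-1, 43 for the combination and 16 for the combination against 7aaRGD. With block and length correction they were 71, 19, 35 and 11. The U87-MG columns carry no number. An alternative added after seeing the data, with the absent direction of variation as a covariate, gave 80, 19, 45 and 19.

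RPKM keep no depth, so the precision of low genes such as Cox4i2, Cox6b2, Cox7a1 and Atp5s is unknown.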
